A study of Mus musculus with 2 samples.

Results

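Late erythroblasts and reticulocytes were taken from single-cell RNA profiles of mouse bone marrow as barcodes selected on measured transcripts, so the values that chose them are described and not tested. A barcode was a member if it had 1000 or more unique molecular identifiers (UMIs, counted transcripts) with under 10% from mitochondrial genes, and 2% or more from the adult globin genes Hba-a1, Hba-a2, Hbb-bs and Hbb-bt. It also had at least 2 UMIs of the late genes Bpgm, Tmcc2, Xpo7 and Tent5c, more of these than of the early genes Hemgn, Rhd, Cpox and Mgst3, and under 5% from S100a8 and S100a9, which are neutrophil transcripts. The rule found 433 of 31569 barcodes. Of these, 313 of 17073 came from the control library, of genotype Mx1Cre+/-;Rosa26+/+, and 120 of 14496 from the MYC library, of genotype Mx1Cre+/-;Rosa26LSL-MYC/LSL-MYC. Both genotypes carry Mx1-Cre, a recombinase under an interferon-inducible promoter that is active in many cell types. In the MYC genotype a stop cassette lies before a MYC transgene on both Rosa26 alleles until Cre removes it. The series compares marrow expression after MYC overexpression in hematopoietic stem cells. Each genotype has 1 library, so genotype cannot be told apart from animal or preparation, no difference was tested, and every interval is a 95% interval for counting error only. Age, sex and any inducing treatment are not given in the labels.

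Terminal erythropoiesis turns a dividing erythroblast into a reticulocyte. The cell fills with haemoglobin, builds a spectrin-based membrane skeleton, condenses and expels its nucleus, and removes mitochondria and ribosomes through autophagy and ubiquitin-dependent breakdown. MYC normally declines as erythroblasts mature, and its decline is part of leaving the cell cycle. When heme is short or proteins misfold, phosphorylation of the initiation factor eIF2α, in erythroid cells mainly by the kinase HRI, raises translation of the transcription factor ATF4, whose targets form the integrated stress response.

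Promoter sequences are shown for 4 genes of the integrated stress response and the interferon response, groups whose known binding elements can be looked for by their letters. They are RefSeq windows of GRCm38.p6, 300 bases long and mostly upstream of the annotated start, read 5′ to 3′ on the strand of the gene. Capitals mark TGATGNAA on either strand in Trib3 and Asns, which is the core of the element that ATF4 binds as a dimer with a C/EBP-family factor. In Rsad2 and Oas3 they mark TTTC, 2 bases of any kind and TTTC again on either strand, the core of the interferon-stimulated response element. Trib3 lies at chr2:152344011-152344310, Asns at chr6:7693160-7693459, Rsad2 at chr12:26456403-26456702 and Oas3 at chr5:120777610-120777909, all on the minus strand.
Trib3: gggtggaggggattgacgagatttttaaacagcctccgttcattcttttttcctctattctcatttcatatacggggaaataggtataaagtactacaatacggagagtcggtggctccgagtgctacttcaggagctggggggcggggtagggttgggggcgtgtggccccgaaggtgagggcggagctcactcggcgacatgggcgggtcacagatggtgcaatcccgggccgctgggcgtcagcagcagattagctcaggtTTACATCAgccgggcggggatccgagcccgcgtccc
Asns: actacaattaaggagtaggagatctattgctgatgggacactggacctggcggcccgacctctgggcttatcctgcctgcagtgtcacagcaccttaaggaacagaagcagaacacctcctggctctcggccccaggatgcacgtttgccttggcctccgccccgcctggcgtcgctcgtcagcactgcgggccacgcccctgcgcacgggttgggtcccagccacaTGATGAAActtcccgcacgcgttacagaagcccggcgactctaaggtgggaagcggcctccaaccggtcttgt
Rsad2: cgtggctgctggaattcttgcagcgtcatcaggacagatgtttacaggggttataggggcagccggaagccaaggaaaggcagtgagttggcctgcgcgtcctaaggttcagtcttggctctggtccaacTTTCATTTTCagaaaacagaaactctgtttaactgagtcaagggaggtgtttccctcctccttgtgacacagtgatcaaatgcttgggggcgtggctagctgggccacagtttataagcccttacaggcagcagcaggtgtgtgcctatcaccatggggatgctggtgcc
Oas3: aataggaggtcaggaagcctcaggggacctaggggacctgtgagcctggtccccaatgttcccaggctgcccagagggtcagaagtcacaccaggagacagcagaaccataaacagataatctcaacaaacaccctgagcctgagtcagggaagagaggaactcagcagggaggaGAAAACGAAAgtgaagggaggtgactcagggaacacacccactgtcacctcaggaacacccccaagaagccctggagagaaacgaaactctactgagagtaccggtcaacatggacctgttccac
Both motifs were chosen after the expression values were seen. TGATGNAA was in the windows of 4.51% of 27025 genes, and the interferon motif in those of 3.99%. Of 42 genes listed for the integrated stress response, 35 had a window and 15 of these held TGATGNAA, among them Trib3, Asns and Nupr1 but not Atf5 or Ddit3. Of 38 interferon-response genes, 26 had a window and 15 held the interferon motif. A match says only that the letters are there.

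The members were fewer in the MYC library. They made up 2.36% (2.11 to 2.64) of the 13251 control barcodes that passed the UMI and mitochondrial limits, and 1.14% (0.945 to 1.36) of 10543 in the MYC library. The difference was -1.22 percentage points (-1.56 to -0.889). Among all haemoglobin-rich barcodes the share was 28.2% of 1110 and 29.9% of 402, a difference of 1.65 points whose interval (-3.56 to 7.07) included 0. The earlier haemoglobin-rich barcodes, which had 2 or more early-gene UMIs and at least as many early as late ones, numbered 779 and 254. Barcodes in neither class numbered 18 and 28. All haemoglobin-rich barcodes together were 8.38% and 3.81% of kept barcodes, so the share was lower at both stages.

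Haemoglobin content within the members differed between the libraries. It ranged from 2.16% to 59.3% of UMIs in control members, with a median of 40.4%, and from 2.12% to 78.3% in MYC members, with a median of 20.5%. Under 25% haemoglobin were 65 of 313 control members (20.8%) and 66 of 120 MYC members (55%). Members at or above 25%, called haemoglobin-high here, were 248 and 54, or 1.87% (1.65 to 2.12) and 0.512% (0.385 to 0.668) of kept barcodes. Of all haemoglobin-rich barcodes they were 22.3% and 13.4%, a difference of -8.91 points (-13.0 to -4.47), so the direction within haemoglobin-rich barcodes depended on which members were counted. The 25% limit was set after the values were seen, and values in haemoglobin-high members are given beside each main result.

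The label was checked against the markers, and it is unsettled for members under 25% haemoglobin. Late-gene UMIs per member had a median of 58 (2 to 208) among control members, 15 (2 to 111) among MYC members, and 74 and 34 in haemoglobin-high members. These genes chose the members, so their levels are a description: Xpo7, an exportin needed for nuclear condensation, stood at 3902 and 1386 counts per 1000000 UMIs (CPM), and Tent5c, a poly(A) polymerase, at 2415 and 966 CPM. At the edge of the rule, 5 control and 11 MYC members had exactly 2 late UMIs, and 4 and 7 barcodes just outside had 1 late UMI and no early one. On haemoglobin, 4 and 13 members lay between 2% and 3%, while 6 and 8 barcodes that met the other limits lay between 1% and 2%. Markers of another cell type, at 3 or more UMIs of a list for macrophages, B, T, megakaryocytic, stem or basophil cells, were in 31 control members (9.90%) and 25 MYC members (20.8%). Below 25% haemoglobin these shares were 26.2% and 28.8%, and above it 5.65% and 11.1%. The summed level of the 14 monocyte and macrophage markers was 364 and 1379 CPM in all members and 66.7 and 277 CPM in haemoglobin-high members, where Cd5l was at 0 in both libraries. In MYC haemoglobin-high members Mrc1, Hpgd, Cx3cr1 and Csf1r were at 0 as well. Other-type markers were thus measured more often in low-haemoglobin members, and their part in the results was not tested. Low-haemoglobin members are a larger share of MYC than of control members, so ratios over all members may also compare different mixtures of cells.

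The depth behind these values was 1776735 UMIs over the control members and 605458 over the MYC members, and 1468626 and 346289 over haemoglobin-high ones. Per member the median was 5752 (1015 to 26290) and 3035 (1012 to 21363) UMIs. Neutrophil RNA was in nearly every member: 98.4% and 99.2% had 3 or more UMIs of the 14 neutrophil markers, whose sum stood at 2752 and 2803 CPM. The share of S100a8 and S100a9 had medians of 0.391% and 1.16%. The libraries shared 97 barcodes, and 0 of these were members in both. Thinned to 1000 UMIs, the median member held 230 genes in the control against 351.5 in the MYC library, and the median haemoglobin-high member 215.5 against 242. The MYC feature of the matrices had 0 UMIs in control members and 1 UMI in MYC members, and mouse Myc had 14 and 3 UMIs, too few to compare at this depth.

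**Figure D1:**
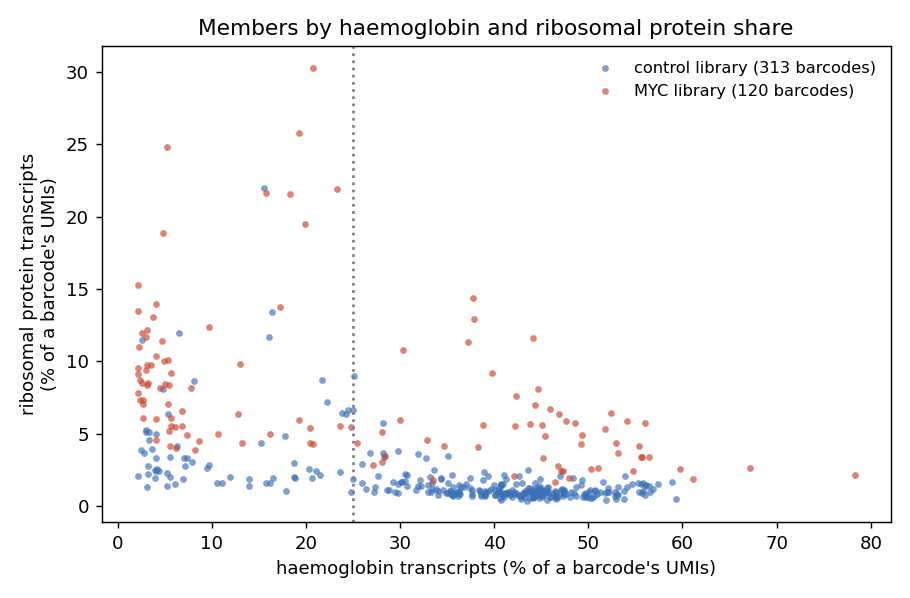
Each point is 1 member barcode; the horizontal axis is the share of its UMIs from adult globin genes and the vertical axis the share from ribosomal protein genes, in percent, with the dotted line at 25% haemoglobin. Control members cluster at high haemoglobin with a median ribosomal share of 1.14%, and MYC members lie higher, with a median of 5.95%, at low and at high haemoglobin.

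Across genes, the members of the libraries were compared by summed UMIs. A gene was tested if it had 50 or more UMIs over both libraries and called if it differed by 1.5-fold or more with an interval that excluded no difference. Of 2492 genes tested, 1014 (40.7%) were higher in MYC members and 415 (16.7%) lower, and the median log2 ratio was 0.44. In haemoglobin-high members 302 (21.4%) of 1413 were higher and 368 (26%) lower, with a median of -0.17. Median-of-ratios scaling takes the median log2 ratio off every gene, which puts the all-gene median near 0 by construction (-0.01). With it the calls in all members were 575 higher and 698 lower. Among the 1413 genes tested in both sets, 281 were called higher in both (of 428 in all members and 302 in haemoglobin-high ones) and 304 lower in both (of 375 and 368). Among the 803 of them called in all members, 29 had the opposite sign in haemoglobin-high ones. Group medians below, taken with 1 CPM added, and group counts are to be read against these all-gene medians and shares.

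Ribosomal protein genes had the highest median among the functional groups described here. All 80 of the 80 tested were higher in MYC members, with a median log2 ratio of 2.25, and 79 of 80 in haemoglobin-high members, with a median of 2.35. Their summed level was 22067 CPM in control members and 97265 CPM in MYC members, and 12145 and 57767 CPM in haemoglobin-high ones. The smallest ratio was that of Rpl41 (773 and 1700 CPM, log2 ratio 1.14, 1.02 to 1.25), a very short protein of the large subunit. The largest was that of Rps18 (140 and 1234 CPM, 3.14, 2.93 to 3.35), a protein of the small subunit head. Per barcode, ribosomal protein transcripts took a median of 1.14% of UMIs in control members (0.379% to 22.0%) and 5.95% in MYC members (1.66% to 30.3%). The ranges overlapped, but the middle parts did not: the quartiles were 0.888% and 1.91% against 4.34% and 9.58%. The MYC median was higher at matched haemoglobin too, by differing amounts. Below 25% haemoglobin the medians were 2.76% (65 members) and 8.41% (66 members). Between 25% and 50% haemoglobin the medians were 1.01% (207 members) and 5.09% (37 members), and between 50% and 75% they were 1.0% (41) and 3.40% (16).

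The same genes were higher elsewhere in the MYC library by less. In earlier haemoglobin-rich barcodes 64 of 81 were higher, where 13.1% of all 8153 genes tested were higher and 19% lower, with a group median of 1.04 and sums of 100049 and 190028 CPM. In all other kept barcodes 44 of 83 were higher, where 6.83% of 14078 genes were higher and 22.3% lower, with a median of 0.60. The ratio in members divided by that in earlier barcodes was above 1 with its interval for 80 of 80 genes, with a median log2 of 1.16. The all-gene median was 0.44 in members and -0.14 in earlier barcodes, over different sets of tested genes. Ratios thus lay higher in members for genes in general too. The other kept barcodes of the MYC library thus also held more of these transcripts (113383 and 166266 CPM), and the part of free RNA in the members was not tested. Beyond the ribosome itself, Eef1a1, the elongation factor that delivers tRNA, stood at 435 and 1604 CPM (1.88, 1.75 to 2.02). Tpt1, a growth-linked transcript with a 5′ terminal oligopyrimidine tract, stood at 830 and 3589 CPM (2.11, 2.02 to 2.21). All 24 of the 24 tested genes on a list of such non-ribosomal transcripts, made after values were seen, were higher, with a median of 1.85.

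**Figure D2:**
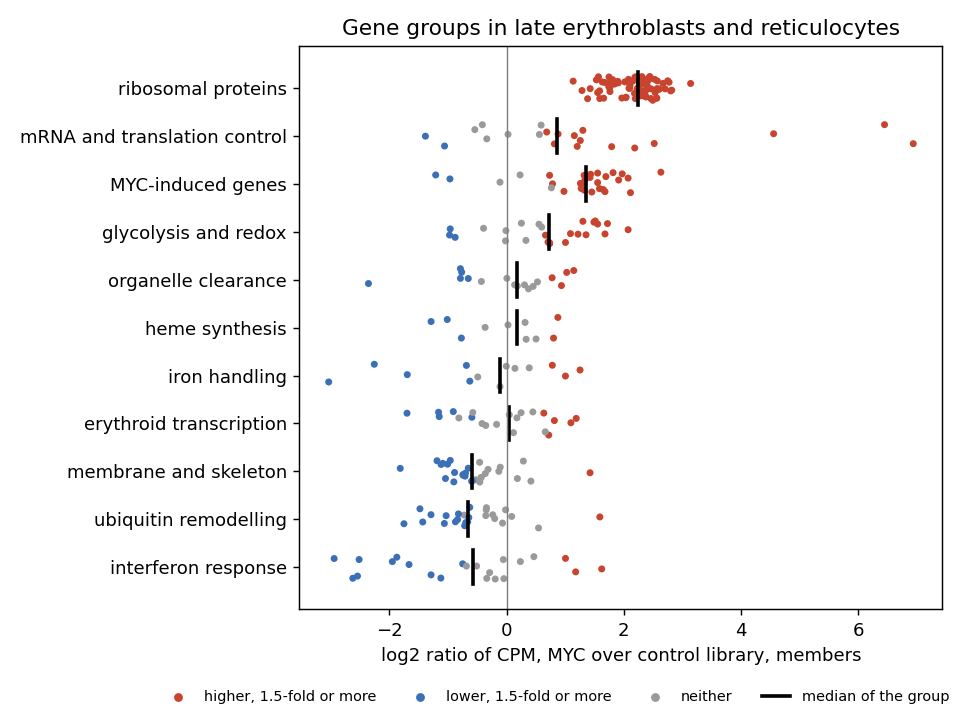
Each point is 1 tested gene, placed by the log2 ratio of its CPM in MYC members over control members; rows are gene groups and black lines the group medians, computed with 1 CPM added. Ribosomal protein genes lie wholly to the right, with a median of 2.25, while membrane, ubiquitin and interferon groups have medians below 0.

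Among genes of the integrated stress response were some of the largest single ratios. Atf5, a transcription factor translated when eIF2α is phosphorylated, had 3 UMIs in control members and 125 in MYC members, or 1.69 and 206 CPM (log2 ratio 6.93, 5.35 to 9.23). The richest MYC member held 10 of these UMIs, and 53 of 120 MYC members had at least 1, against 3 of 313 control members. Trib3, a pseudokinase that restrains ATF4 signalling, had 3 and 89 UMIs (1.69 and 147 CPM, 6.44, 4.85 to 8.75). Both genes were nearly undetected in control members and spread over many MYC members. Elsewhere in the control library, an Atf5 UMI was in 8.60% of earlier haemoglobin-rich barcodes and 4.69% of other kept ones. Ddit3, which encodes CHOP, a stress factor downstream of ATF4, stood at 13.5 and 317 CPM (4.55, 3.94 to 5.23). Gng5, a G-protein subunit and not a member of the list, stood at 42.2 and 593 CPM (3.81, 3.45 to 4.19).

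As point values the ratios were at least as large in haemoglobin-high members. Above 25% haemoglobin the log2 ratios were 8.76 (6.25 to 14.1) for Atf5 and 7.15 for Trib3, with 1 and 2 control UMIs. For Ddit3 and Gng5 they were 5.05 (4.37 to 5.80) and 4.98 (4.46 to 5.53). The Atf5 interval overlapped that of all members, so no rise was shown for it. Between 25% and 50% haemoglobin, Ddit3 stood at 14.8 and 460 CPM. After thinning to 1000 UMIs, a Ddit3 UMI was in 1.92% (0.707 to 4.13) of control members and 20.8% (14 to 29.2) of MYC members, in 5.13% and 24.8% of earlier haemoglobin-rich barcodes, and in 2.55% and 2.21% of all other kept barcodes, whose median depths were 6359 and 7569 UMIs. Without thinning the member shares were 7.03% and 52.5%. Gng5 UMIs were also common outside the members: a UMI was in 3.19% and 30.8% of members but in 25.9% and 37.9% of other kept barcodes after thinning. Other genes of the response had smaller ratios, and not all were called. Atf4 itself stood at 84.4 and 208 CPM (1.3, 0.95 to 1.65). Asns, asparagine synthetase, stood at 42.2 and 77.6 CPM (0.88, 0.32 to 1.42). Eif4ebp1, a brake on cap-dependent initiation that is not on the list, stood at 11.8 and 67.7 CPM (2.52). Sesn2, a leucine sensor upstream of mTORC1, stood at 11.3 and 51.2 CPM (2.19), and Ppp1r15a, the phosphatase subunit that reverses eIF2α phosphorylation, at 916 and 1473 CPM (0.69, 0.57 to 0.80). Eif2ak1, which encodes HRI, was not called (420 and 289 CPM, -0.54, -0.79 to -0.30). Of 22 list genes tested, 16 were higher and 1, the amino acid transporter Slc7a5, lower (170 and 85.9 CPM, -0.99). Slc7a5 turned to 0.094 after thinning to 1000 UMIs, and Asns to -0.14 at 50% haemoglobin or more. The list was made after values were seen, and its median was 1.31 (1.26 in haemoglobin-high members). In earlier barcodes the median was also 1.31, with 27 of 32 higher and 0 lower. The all-gene median was 0.44 in members and -0.14 in earlier barcodes, with 40.7% and 13.1% of genes higher. Against all genes, the list thus stood further apart in earlier barcodes than in members. Of 12 genes known to respond to tissue dissociation 6 were higher and 0 lower in all members, near the 40.7% of all genes that were higher, with sums of 1355 and 2271 CPM, but in haemoglobin-high members 1 of 5 was higher and 1 lower, with sums of 985 and 1016 CPM.

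Some of these genes followed maturation differently in the libraries. From earlier to late barcodes, Atf5 went from 8.46 to 1.69 CPM among control barcodes (-2.32) and from 123 to 206 CPM among MYC barcodes (0.75). Ddit3 went from 45.8 to 13.5 CPM among control barcodes and from 287 to 317 CPM among MYC barcodes. Gng5 went from 102 to 42.2 CPM and from 423 to 593 CPM. For these 3 genes, unlike the list median, the ratio between libraries was larger in members than in earlier barcodes, with log2 differences of 3.07 (1.39 to 4.76) for Atf5, 1.91 (1.27 to 2.54) for Ddit3 and 1.76 (1.38 to 2.14) for Gng5. For Trib3 the interval of the difference included 0 (-0.69, -2.55 to 1.16), with 3 control UMIs behind it.

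**Figure D3:**
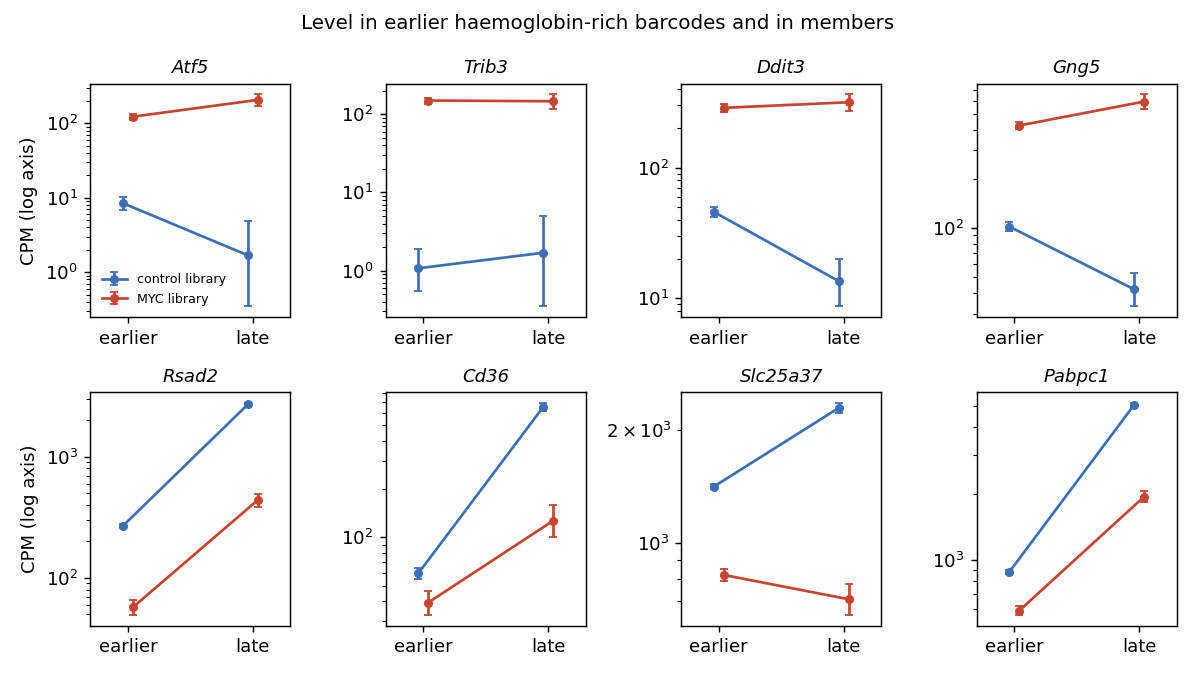
Level in CPM on a log axis in earlier haemoglobin-rich barcodes and in members, for 8 genes, with exact Poisson 95% intervals as bars; each line joins the 2 stages of 1 library. The upper genes are higher in the MYC library at both stages, and the lower genes are higher in the control, with the gap wider in members than in earlier barcodes for Cd36, Slc25a37 and Pabpc1.

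Membrane and skeleton genes were more often lower than higher in MYC members. Of 29 tested, 16 were lower and 1 higher, with a median of -0.59 (-0.58 in haemoglobin-high members, 12 lower of 26 and 0 higher), where 16.7% and 26% of all genes tested were lower. The median was -0.12 after thinning to 1000 UMIs, -0.31 with barcodes weighted equally and -1.04 with median-of-ratios scaling. Sptb, β-spectrin, stood at 379 and 167 CPM (-1.19, -1.5 to -0.88). Slc4a1, the anion exchanger band 3 that anchors the skeleton, stood at 3595 and 1747 CPM (-1.04, -1.14 to -0.95), and Epb42, which binds it, at 580 and 268 CPM (-1.12). Epb41, protein 4.1, stood at 2115 and 1135 CPM (-0.90), and Aqp1, the water channel, at 149 and 74.3 CPM (-1.01). Not all of the group was called: Ank1, ankyrin, was not (321 and 249 CPM, -0.36). The higher gene was Add3, γ-adducin (19.7 and 52.9 CPM, 1.42), which turned to -0.88 at 50% haemoglobin or more. In earlier barcodes 12 of 30 were lower and 1 higher, with a median of -0.48, where 19% of all genes were lower.

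Heme and iron genes split. Of 10 heme synthesis genes tested, 2 were higher and 3 lower, with a median of 0.17 (4 and 2 of 10 in haemoglobin-high members, 0.41). Of all genes tested 40.7% were higher and 16.7% lower (21.4% and 26% in haemoglobin-high members). The first and the last enzyme of the pathway were both lower: Alas2, at 2064 and 1211 CPM (-0.77, -0.89 to -0.66), and Fech, ferrochelatase, at 1324 and 657 CPM (-1.01, -1.17 to -0.86). Alas2 was not called in haemoglobin-high members (-0.49). Abcb10, a mitochondrial transporter that supports heme synthesis, stood at 310 and 127 CPM (-1.29). The mitochondrial carriers Slc25a38, which imports glycine, and Tmem14c, which moves a porphyrin intermediate, were the higher genes (0.87 and 0.80).

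Among 13 iron genes 3 were higher and 5 lower, with a median of -0.11 (2 and 1 of 10 in haemoglobin-high members, 0.12). The shares over all genes tested were 40.7% higher and 16.7% lower (21.4% and 26% in haemoglobin-high members). Slc25a37, mitoferrin-1, which brings iron into mitochondria, stood at 2290 and 709 CPM (-1.69, -1.84 to -1.55; -1.63 in haemoglobin-high members). Between 25% and 50% haemoglobin it stood at 2592 and 942 CPM. Both ferritin chains were higher: Fth1 at 1199 and 2857 CPM (1.25, 1.16 to 1.34) and Ftl1 at 938 and 1881 CPM (1.0, 0.89 to 1.11). In haemoglobin-high members the ratios were 0.65 and 0.95. Slc25a37 and both ferritin genes thus lay on opposite sides. The iron chaperone Pcbp2 was also higher (0.78), and Isca1 (-0.68), Ncoa4, the receptor for ferritin breakdown (-0.63), and the iron exporter Slc40a1 (-2.25, 84 and 6 UMIs) were lower. The fifth lower gene was Hmox1, heme oxygenase (72 and 3 UMIs), but 1 control barcode held 68 of its UMIs. Tfrc, the transferrin receptor, was not called (701 and 649 CPM, -0.11).

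The globin genes chose the members and are described only. Their summed level was 367238 CPM in control members and 315350 CPM in MYC members, but 415300 and 462175 CPM in haemoglobin-high members and 115862 and 159966 CPM in earlier barcodes, where the MYC library had the higher level. Among globin UMIs there were 0.542 (0.539 to 0.545) α UMIs per β UMI in control members and 0.429 (0.425 to 0.433) in MYC members, and 0.541 and 0.432 in haemoglobin-high ones. Hbb-bt UMIs per Hbb-bs UMI were 0.318 and 0.251. The same order held in earlier barcodes, with 0.530 and 0.464 α per β UMI. Hba-a1 and Hba-a2, like the β genes, are near-identical copies, so the split within a chain type depends on how reads were assigned. The θ-globin gene Hbq1b stood at 92.9 and 34.7 CPM in members (-1.42, -2.15 to -0.76).

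Ubiquitin-system genes were mostly lower. Of 25 tested, 14 were lower and 1 higher, with a median of -0.66 (-0.67 in haemoglobin-high members, 12 lower of 25). Of all genes tested 16.7% were lower in all members and 26% in haemoglobin-high ones. In earlier barcodes 9 of 31 were lower and 1 higher, with a median of -0.35, where 19% of all genes were lower. Ube2o, the hybrid E2 and E3 enzyme that clears ribosomal proteins in reticulocytes, stood at 1094 and 598 CPM (-0.87, -1.04 to -0.71). Ube2h, an E2 enzyme that works with the CTLH ligase, stood at 956 and 542 CPM (-0.82), and Wdr26, a scaffold of that ligase, at 792 and 388 CPM (-1.03). Other lower genes were Cul4a (200 and 59.5 CPM, -1.75), Fbxo30 (450 and 162 CPM, -1.48), Ypel4 (-1.43), Rnf11 (-1.29) and Trim58, a ligase that promotes enucleation (-1.06). The higher gene was Ubb, polyubiquitin, at 773 and 2327 CPM (1.59, 1.48 to 1.70). The E2 enzyme gene Ube2b was not called (641 and 761 CPM, 0.25). The Ubb ratio was as large in earlier barcodes (1.5), where the Ube2h ratio was 0.01 and that of Ube2o -0.87.

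Organelle clearance genes had no common direction. Of 17 tested, 4 were higher and 5 lower, with a median of 0.18 (4 and 2 of 15 in haemoglobin-high members, 0.24). Of all genes tested 40.7% were higher and 16.7% lower (21.4% and 26% in haemoglobin-high members). Bnip3l, the receptor that marks mitochondria for removal in reticulocytes, stood at 957 and 555 CPM (-0.79, -0.96 to -0.62; -0.57 and not called in haemoglobin-high members). Optn, an autophagy receptor, stood at 76.0 and 14.9 CPM (-2.35), and Ulk1, the kinase that starts autophagy, at 142 and 82.6 CPM (-0.79). Atg4a and Becn1 were the other lower genes (-0.76 and -0.65). Lamp1 (1.15), Wipi1 (1.03), Rab7 (0.94) and Gabarap (0.78), of lysosomes and autophagosome membranes, were higher. Mitochondrial transcripts themselves were higher for 8 of 13 genes in all members, with a median of 0.66, but for 1 of 12 in haemoglobin-high members, with a median of 0.05.

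Transcription and nuclear genes were called in both directions. Of 21 erythroid transcription genes tested, 5 were higher and 5 lower, with a median of 0.05, and in haemoglobin-high members 2 were higher and 4 lower of 16, with a median of -0.49. Of all genes tested 16.7% were lower in all members and 26% in haemoglobin-high ones, so the lower counts are no result about the group. Higher were E2f4 (1.19), Klf13 (1.10), Nfe2l2 (0.82), Zbtb7a (0.72) and Zfpm1, the GATA1 cofactor FOG1 (0.64), of which E2f4 and Zfpm1 were also called in haemoglobin-high members and Nfe2l2 turned to -0.77 there. At 50% haemoglobin or more E2f4 turned to -0.71 and Klf13 to -0.29. Lower were Tfdp2, the partner of E2F2 in cell cycle exit (1477 and 456 CPM, -1.70, -1.88 to -1.52), Foxo3, which drives late maturation and antioxidant genes (280 and 126 CPM, -1.16), Sox6 (-1.15), Lmo2 (-0.91) and E2f2 itself (-0.59). Klf1 (54.0 and 61.1 CPM) and Gata1 (22.0 and 34.7 CPM), the main erythroid factors, were not called. Of 18 enucleation and chromatin genes, 7 were higher and 4 lower (3 and 4 of 13 in haemoglobin-high members). These shares lay near those of all genes tested (40.7% higher and 16.7% lower; 21.4% and 26% in haemoglobin-high members), so they are no result about the group. The lower ones were Diaph3 (-1.33) and Cit (-0.97), which act in cytokinesis, the MYC antagonist Mxd1 at 431 and 243 CPM (-0.83), and the cell cycle inhibitor Cdkn1b at 466 and 284 CPM (-0.71). Few cell cycle genes were called: of 14 S-phase genes 3 were higher and 1 lower, with sums of 579 and 813 CPM (361 and 237 CPM in haemoglobin-high members), and of 24 G2/M genes 3 were higher and 3 lower, with a median of 0.13 (-0.42 in haemoglobin-high members, 0 and 4 of 17). The histone variant H2afz was higher (159 and 355 CPM, 1.16).

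The poly(A)-binding protein transcript Pabpc1 stood at 5047 CPM in control members and 1936 CPM in MYC members (-1.38, -1.47 to -1.30; -1.43 in haemoglobin-high ones). It was among the 10 most abundant transcripts of control members. Btg2, which recruits deadenylases, was lower too (299 and 144 CPM, -1.06). Of 21 genes listed for mRNA and translation control 13 were higher and only these 2 lower, but 9 of the list's 26 genes are also on the stress response list. The median was 0.86, and in haemoglobin-high members 6 were higher and 3 lower of 13, with a median of 0.48. Of all genes tested 40.7% were higher and 16.7% lower (21.4% and 26% in haemoglobin-high members).

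Survival genes were few. Bcl2l1, which encodes the Bcl-xL protein that keeps late erythroblasts alive, stood at 640 and 282 CPM (-1.18, -1.42 to -0.95; -1.0 in haemoglobin-high members). Bax, its pro-apoptotic counterpart, had 17 and 40 UMIs (9.57 and 66.1 CPM, 2.79, 1.94 to 3.70), fewer than needed for a call in haemoglobin-high members. Mcl1 was higher in all members (0.76) but not in haemoglobin-high ones (-0.92, not called). Of 6 genes tested 2 were higher and 1 lower, near the 40.7% and 16.7% of all genes, so the counts are no result about the group. The kinase gene Pim1 was not called in members (688 and 680 CPM, -0.02), although its log2 ratio in earlier barcodes was 1.70.

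In metabolism and redox, 15 of 25 genes were higher and 3 lower, with a median of 0.72 (0.58 in haemoglobin-high members, 8 and 3 of 18), where 40.7% and 21.4% of all genes were higher and 16.7% and 26% lower. The median turned to -0.14 after thinning to 1000 UMIs and to -0.17 at 50% haemoglobin or more. The lower ones were abundant erythroid enzymes: Gpx1, glutathione peroxidase, at 5076 and 2767 CPM (-0.88, -0.95 to -0.80), Car2, carbonic anhydrase, at 3924 and 2002 CPM (-0.97), and Cat, catalase, at 495 and 254 CPM (-0.96). The peroxiredoxin Prdx2 stood at 1189 and 1883 CPM (0.66, 0.56 to 0.77), Prdx1 at 45.6 and 150 CPM (1.72), and thioredoxin, Txn1, at 76.5 and 322 CPM (2.07). Glycolytic Gapdh (91.7 and 258 CPM, 1.49), Aldoa (1.55) and Ldha (1.68) were higher, but Ldha turned to -1.29 at 50% haemoglobin or more. Of 30 genes listed as induced by MYC 25 were higher and 2 lower, with a median of 1.36, against 4 and 1 of 10 in haemoglobin-high members (0.63). In earlier barcodes 28 of 47 were higher and 1 lower (0.68), where 13.1% of all genes were higher. In other kept barcodes 5 of 50 were higher and 2 lower (0.16), where 6.83% of all genes were higher.

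Interferon-response genes were more often lower than higher. Of 22 tested, 10 were lower and 3 higher, with a median of -0.57, and in haemoglobin-high members 8 of 13 were lower and 0 higher, with a median of -1.20, where 16.7% and 26% of all genes were lower. Rsad2, the antiviral enzyme viperin whose promoter is printed above, stood at 2702 CPM in control members and 439 CPM in MYC members, from 4800 and 266 UMIs (-2.62, -2.80 to -2.44; -2.66 in haemoglobin-high ones). A Rsad2 UMI was in 94.9% of control and 53.3% of MYC members, or 78.9% and 27.5% after thinning to 1000 UMIs, and in 6.94% and 1.62% of other kept barcodes after thinning. Ifit1, which binds viral RNA, stood at 125 and 21.5 CPM (-2.54), and Irf7, a factor that amplifies the response, at 75.4 and 13.2 CPM (-2.51). Oasl2 (-1.87), Oas3 (110 and 34.7 CPM, -1.66) and Xaf1 (-2.94) were lower as well. The ubiquitin-like modifier Isg15 was not called (753 and 725 CPM, -0.05), nor was the nuclease Isg20 (630 and 742 CPM, 0.24). The higher genes were the immunoproteasome subunits Psmb8 (1.62) and Psmb9 (1.18) and the surface protein gene Ly6e (1.0). Psmb9 was -0.72 in haemoglobin-high members, where it had too few UMIs for a call, and -0.021 without barcodes that held other-type markers. Ly6e was 0.45 and not called in haemoglobin-high members. The group median was -1.10 in earlier barcodes, with 20 of 30 lower and 1 higher, and 28 of 36 were lower in other kept barcodes, where 19% and 22.3% of all genes were lower. Lower levels were thus measured in members and in the rest of the marrow, and Mx1-Cre is itself under an interferon-inducible promoter in both genotypes.

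By size of ratio, the genes lowest in MYC members after those above were mostly transcripts more abundant in late than in earlier control barcodes. Cd36, the fatty acid receptor, stood at 652 and 127 CPM (-2.36, -2.71 to -2.02; -2.25 in haemoglobin-high members). From earlier to late barcodes it went from 59.7 to 652 CPM in the control and from 39.3 to 127 CPM in the MYC library. Sowaha (603 and 137 CPM, -2.14), Ibtk, an inhibitor of Bruton tyrosine kinase (562 and 130 CPM, -2.11), and Rec114 (225 and 47.9 CPM, -2.23) followed. So did Acsl1, which activates fatty acids (-1.93), the guanine deaminase gene Gda (836 and 221 CPM, -1.92), Paqr9 (-1.89), the lactate transporter gene Slc16a1 (-1.86) and Btrc, an F-box protein gene (-1.76). All of these were lower in haemoglobin-high members too. Mcpt8, a basophil protease gene, had the lowest ratio among genes whose mean reached 100 CPM, antigen receptor genes left out (332 and 15 UMIs, -2.92), but 1 control barcode held 307 of its UMIs.

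Among the genes highest in MYC members were 7 of macrophages and other myeloid cells. They were the complement genes C1qa (3.0), C1qb (4.05) and C1qc (4.35), the Fc receptor gene Fcgr4 (9.57 and 355 CPM, 5.21), Gngt2 (3.66), Wfdc17 (3.62) and the inflammasome adaptor gene Pycard (3.17). Fcgr4 UMIs were in 25 of 120 MYC members, and C1qb UMIs in 16, 1 of which held 90 of 283. Without the highest-scoring 10% of barcodes by Scrublet, C1qa was -0.11, C1qb -0.020, C1qc 0.72 and Fcgr4 4.23. The summed level of the monocyte and macrophage markers, some of which are among these genes, is given above. These genes had fewer than 50 UMIs in haemoglobin-high members and were not tested there. All 7 ratios were still above 0 in those members, from 2.53 for Gngt2 to 5.41 for C1qc (2 and 20 UMIs). In other kept barcodes they ran from 1.26 for Pycard to 3.72 for C1qb (7.79 and 103 CPM). Higher levels of these genes were thus not confined to low-haemoglobin members. The other high ranks were Atf5, Ddit3, Gng5, Rps18 and Rpl29 (76.0 and 535 CPM, 2.82).

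**Figure D4:**
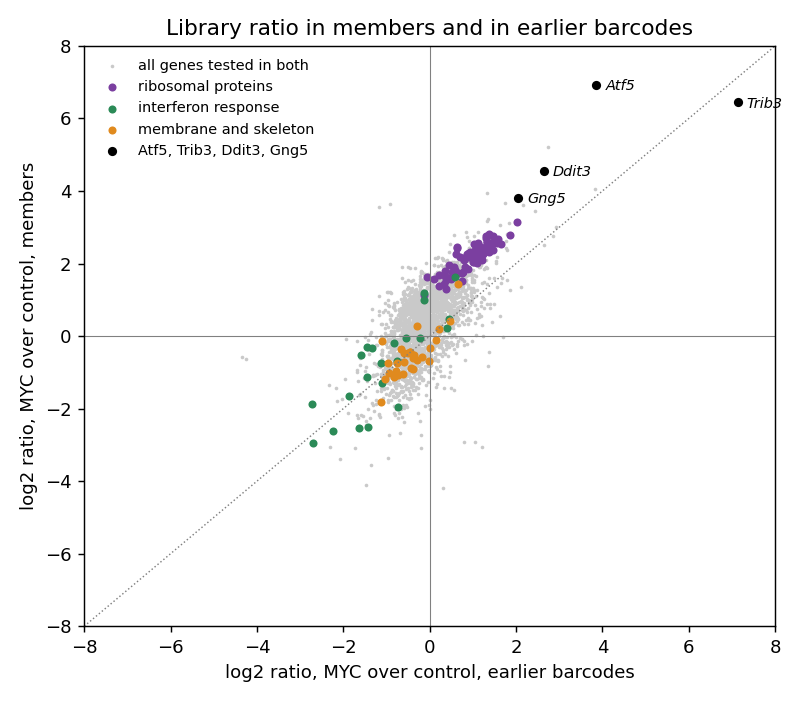
Each point is 1 of 2477 genes tested at both stages (1 immunoglobulin gene with no UMI in 1 library is not drawn); axes are the log2 ratios of MYC over control in earlier haemoglobin-rich barcodes and in members, and the dotted line marks equal ratios. Ribosomal protein genes lie above the line, as do Atf5, Ddit3 and Gng5, while Trib3 lies near it.

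Maturation itself is what the rule sorts on, so the contrast of members with earlier barcodes is given as a description. In the control 772 (9.79%) of 7883 genes were higher in members and 5098 (64.7%) lower, and in the MYC library 604 (11.6%) of 5186 were higher and 2371 (45.7%) lower. With median-of-ratios scaling the control gave 2268 and 1769 and the MYC library 1271 and 969. Among 5163 genes tested in both, 369 were higher in both (of 489 and 592), 2292 lower in both (of 3839 and 2366), and 42 were called in opposite directions. Cell division transcripts were at their end: all 31 and 40 of the S and G2/M genes were lower in control members, with medians of -3.61 and -3.05, and 30 of 30 and 40 of 40 in MYC members (-2.68 and -2.61). Hist1h1a, a linker histone made in S phase, went from 287 to 11.8 CPM and from 413 to 9.91 CPM. Car1, carbonic anhydrase of early erythroid cells, went from 378 to 20.3 and from 599 to 57.8 CPM.

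Many transcripts that took their place were shared between the libraries, and most of those named here reached lower levels in MYC members. Tcp11l2 went from 7.48 to 440 CPM in the control and from 13.1 to 281 CPM in the MYC library (-0.65 between members; -0.47 and not called in haemoglobin-high ones). Tbcel, a tubulin-binding protein gene, went from 27.2 to 777 and from 21.9 to 344 CPM, and Slfn14, a ribonuclease gene needed for platelet and red cell production, from 43.9 to 683 and from 33.8 to 345 CPM. Lpin2, a phosphatidic acid phosphatase gene, went from 49.5 to 611 and from 27.1 to 279 CPM. Ube2b, an E2 enzyme gene, reached 641 and 761 CPM and was not called between the libraries. Ribosomal protein genes were lower in members than in earlier barcodes for 81 of 81 in the control (median -2.17) and 77 of 81 in the MYC library (-0.99). The medians over all genes tested were -1.27 and -0.73, so in the MYC library the group lay nearer to genes in general.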

How the data were processed

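Bone marrow cells of 1 control and 1 MYC library were profiled in droplets by their 3′ ends, per the labels' protocols. Deposited matrices hold whole UMI counts for each gene in each barcode, and per the file headers Cell Ranger 6.0.0 wrote them; the submitters' processing notes also name GRCm38, mm10 and Seurat. How barcodes were called as cells and the annotation are not given in the sources used here. Nothing was corrected for free RNA. Members were found by the stated rule among 32286 features, with Python 3.11.15, numpy 2.4.6, scipy 1.17.1, pandas 2.3.3 and scanpy 1.11.5. UMIs were summed over a class in each library and given per 1000000 UMIs (CPM). Ratios have exact conditional binomial intervals, shares have exact Clopper-Pearson ones, and share differences use Newcombe's method; log2 ratios of ratios have log-scale counting intervals, and list medians add 1 CPM. Ratio and call code was tested on simulated data. Doublets were kept: Scrublet called 670 control and 0 MYC barcodes, so it did not work in the MYC library. Members and lists were chosen with earlier results of these data known. Genes named first were the 12 highest and 12 lowest ratios of MYC over control and of late over earlier, with a mean of at least 100 CPM and an interval that excludes 1. That ranking skipped rule genes, neutrophil markers, mitochondrial genes and antigen receptor genes; others were named from the lists, and stress response, interferon, 5′ tract and complement genes beyond the ranking after their values were seen. The stress response and 5′ tract lists, the 25% haemoglobin split, the barcodes without other-type markers, Gm42418 out of the denominator and the highest Scrublet scores were chosen after seeing the data. Genes with duplicated symbols were taken from the feature with more UMIs. Some genes of the lists and the ranking are not reported here.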

Additional observations from a re-analysis of the deposited data

Results flagged for a closer look

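Of the 42 genes whose ratio of members over earlier barcodes was called in opposite directions in the libraries, 3 are on the functional gene lists or among the genes named by rank; the difference itself was not tested, since each group is 1 library. Atf5 had a log2 ratio of 0.75 in the MYC library and -2.32 in the control. Hbq1b had -1.17 in the MYC library and 0.75 in the control, with 165 and 21 UMIs in members. Mcpt8 had -0.91 in the MYC library and 2.80 in the control, where 1 member held 307 of 332 UMIs. Prss34, on the basophil marker list, also went opposite ways (-1.63 and 2.86), and 1 control member held 301 of its 320 UMIs.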

How the results depend on the processing

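With 1 library per group, every result rests on 2 libraries and depth sets only the counting error. Of 1632 values of 118 genes under 14 alternatives, 1605 kept their direction. Only genes called in the main comparison were counted, where both libraries had UMIs. Several alternatives kept the same barcodes, so much of this agreement was fixed in advance. The share difference lay between -1.46 and -1.16 points, except with 50% haemoglobin or more (41 and 17 members), where it was -0.15 points; at that limit 0 and 3 earlier barcodes were left, so the stages could not be compared. Some list medians could not be computed there or after thinning.

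Genes higher in MYC members numbered 80 at 50% haemoglobin, 157 after thinning to 1000 UMIs, 254 at 200 UMIs per gene, 302 at 25% haemoglobin, 423 without other-type markers, 575 with median-of-ratios scaling, 644 without the highest-scoring 10% by Scrublet and 2231 at 10 UMIs per gene. Genes lower numbered 99 at 50% haemoglobin, 104 after thinning, 241 at 200 UMIs and 698 with median-of-ratios scaling. Genes higher in members than in earlier barcodes numbered, in the control, 262 after thinning, 413 at 25% haemoglobin, 442 at 200 UMIs, 1210 without haemoglobin in the denominator and 2268 with median-of-ratios scaling. In the MYC library they numbered 105, 282, 237 and 1271 under the thinning, 25%, 200-UMI and scaling alternatives, 383 without other-type markers and 1197 at 10 UMIs. Genes lower numbered 1291 after thinning and 1769 with scaling in the control, and 319, 969 and, at 200 UMIs, 1298 in the MYC library.

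The ribosomal protein median was 1.80 with median-of-ratios scaling, 1.94 at 50% haemoglobin, 2.06 after thinning, 2.14 without haemoglobin or Gm42418 in the denominator, 2.33 at 2000 UMIs per barcode, 2.35 at 25% haemoglobin, 2.41 with S100a8 and S100a9 under 1%, 2.43 without the highest Scrublet scores and 2.50 without other-type markers. The membrane median was -0.12 after thinning, -0.31 with each barcode weighted equally, -0.42 without other-type markers and -1.04 with scaling. The MYC-induced median was 0.63 at 25% haemoglobin, 0.91 with scaling, 1.03 without other-type markers and 1.21 with equal weights, and the ubiquitin median -1.11 with scaling. Scaling takes the same amount off each log2 ratio, so the scaled medians are the main ones shifted and not separate checks.

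Directions turned at 50% haemoglobin for Add3 (-0.88), Asns (-0.14), Atg4a (0.52), Becn1 (0.39), E2f4 (-0.71), Hbq1b (0.25), Klf13 (-0.29), Ldha (-1.29), Ly6e (-0.51), Mcl1 (-0.29; -0.92 at 25%), Nfe2l2 (-0.29; -0.77 at 25% and -0.62 after thinning) and Mcpt8 (0.12), and for the medians of all genes (-0.37), glycolysis and redox (-0.17; -0.14 after thinning) and mitochondrial genes (-0.63). Mcpt8 was also 0.50 at 25% haemoglobin, 1.35 without the highest Scrublet scores and 1.32 without other-type markers. Without the highest Scrublet scores C1qa was -0.11 and C1qb -0.020. Hmox1 was 0.66 under 5% mitochondrial UMIs, 1.71 after thinning and 2.98 without other-type markers. Psmb9 was -0.72 at 25% haemoglobin and -0.021 without other-type markers, and after thinning Ulk1 was 0.16 and Slc7a5 0.094. The all-gene median was -0.0086 with scaling, which sets it near 0 by construction, -0.063 at 200 UMIs and -0.17 at 25% haemoglobin. Apart from the scaled median, the cause was not tested in any of these cases. Leaving out called doublets was not run, since the caller did not work in the MYC library. No paired analysis was possible because each group has 1 library and the result comes from no test.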
